A study of Homo sapiens with 6 samples.

Results

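Histone genes named by the current family symbols were described here, that is genes of the table whose symbol starts with H1-, H2AC, H2BC, H3C or H4C and ends in a number. Described are 69 of the 59653 genes: 9 of the linker histone H1, 16 of H2A, 17 of H2B, 13 of H3 and 14 of H4. RNA was sequenced from SK-OV3, a human ovarian cancer cell line that lacks p53, 48 h after transfection with siRNA. The siControl group (3 libraries) received a non-targeting siRNA pool and the siPVT1 group (3 libraries) a pool of siRNAs against PVT1, a long noncoding RNA. Both groups are wildtype cells of this 1 line and differ, as labelled, in the siRNA pool alone, so a change by loss of PVT1 and one by another target of the pool cannot be told apart. Nothing in the labels says that the libraries came from separate cultures, so the p-values measure the spread between these libraries, which may be technical.

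Histones package DNA into nucleosomes: H2A and H2B pair as dimers, H3 and H4 form the central tetramer, and H1 binds the linker DNA between nucleosomes. Replication-dependent histone genes are switched on in S phase through NPAT, and their mRNAs end in a conserved stem-loop, bound by the protein SLBP, in place of a poly(A) tail. Libraries made by capture of poly(A) tails, as these were, therefore hold mainly the polyadenylated transcripts that some of these genes also make, so that a count here is not a measure of the usual stem-loop mRNA. Replacement histones such as H1-10 are made outside S phase from ordinary polyadenylated mRNAs.

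The stem-loop was searched on the gene's strand within 150 bases after the stop codon, in GRCh38 and GENCODE 44, and was found in 66 of the 69 genes. The 3 genes without it were H1-7, H1-8 and H1-10. The 66 genes are called replication-dependent below, and H1-10 is given apart from them, since the symbol pattern takes in H1 genes of both kinds. The sequences of the 10 replication-dependent genes with the highest counts, and of H2BC18, the first gene under the limit set below, are shown. The stem-loop is the feature by which the genes were sorted. Each is given 5′ to 3′ with 5 bases on either side, and the capitals mark the 16 bases of the stem-loop.
H4C8 (chr6:26285126-26285151, minus strand): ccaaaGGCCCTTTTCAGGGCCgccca
H4C15 (chr1:149860764-149860789, minus strand): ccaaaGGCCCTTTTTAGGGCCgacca
H2BC8 (chr6:26216213-26216238, minus strand): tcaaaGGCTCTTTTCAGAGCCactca
H2BC18 (chr1:149811880-149811905, minus strand): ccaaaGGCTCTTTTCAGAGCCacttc
H2AC6 (chr6:26124664-26124689, plus strand): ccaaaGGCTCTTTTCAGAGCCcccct
H2BC21 (chr1:149886183-149886208, minus strand): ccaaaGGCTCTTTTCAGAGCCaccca
H2BC4 (chr6:26123467-26123492, minus strand): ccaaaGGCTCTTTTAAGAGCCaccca
H2BC5 (chr6:26158582-26158607, plus strand): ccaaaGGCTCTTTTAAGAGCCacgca
H2BC12 (chr6:27146361-27146386, minus strand): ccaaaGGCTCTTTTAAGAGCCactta
H2AC19 (chr1:149851569-149851594, plus strand): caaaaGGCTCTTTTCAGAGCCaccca
H1-2 (chr6:26055739-26055764, minus strand): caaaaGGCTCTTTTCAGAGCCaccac
The same 16 bases occurred in groups of genes: 10 variants were found, 1 of them in 38 genes of the H1, H2A, H2B and H3 families and 1 in 9 genes, all of them H4. H4C8 carried the form of those 9 H4 genes and H4C15 the form of 4 H4 genes. The stem-loop lay 22 to 67 bases after the stop codon, and the main annotated transcript ended no more than 18 bases past it in 65 of the 66 genes. The exception was H2BC21, whose main annotated transcript runs 1729 bases past the stem-loop.

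Levels split the 69 genes into 3 groups by the mean normalized count (the count scaled by edgeR's TMM factors) over all 6 libraries. At least 100, called sizeable here, was reached by 11 genes, 20 lay from 5 to 100, and 38 lay under 5, of which 6 were at 0 in every library. For a gene at 0 the limit that 3 counts allow was 0.0856 to 0.106 per 1000000 counts of the library, which covers counting error only. On the scale of normalized counts per kilobase of the main annotated transcript, the siControl means were 1479 for H2AC6, 1161 for H2BC12, 971 for H4C15 and 919 for H1-10. Longer transcripts of the same gene, where counted, make these values too high. H4C8 and H2BC4 were the 2 genes just inside the limit of 100, with means of 145 and 117 normalized counts, and H2BC18 (94.7) and H3C6 (81.5) were the 2 just outside.

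An annotated transcript that ends at least 100 bases past the stem-loop was present for 14 of the 66 replication-dependent genes. These were 6 of the 10 at sizeable counts (H2AC6, H2BC21, H4C15, H2BC5, H4C8 and H2BC4), 7 of the 20 at low counts and 1 of the 36 near zero. The 1 near zero was H2AC1, at 0 in all 6 libraries. H2BC12, H2AC19, H1-2 and H2BC8 had sizeable counts with no such annotated end. The annotation is newer than the GENCODE 35 set that the study counted on. Of these 14 genes 13 were tested between the groups, against 16 of the 52 without such an end, and 5 were lower in siPVT1 past both thresholds in each set, where 9.64% of all tested genes were. By adjusted p, whatever the fold, 9 of the 13 and 5 of the 16 were lower, beside 28.4% of all tested genes, and 1 of the 16 was higher. H2AC7, among the 5 without such an end, passed the filter on low counts through its siControl libraries alone. H4C15, among the 5 with one, shares reads with H4C14, as given below. The difference between the sets was not tested.

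**Figure D1:**
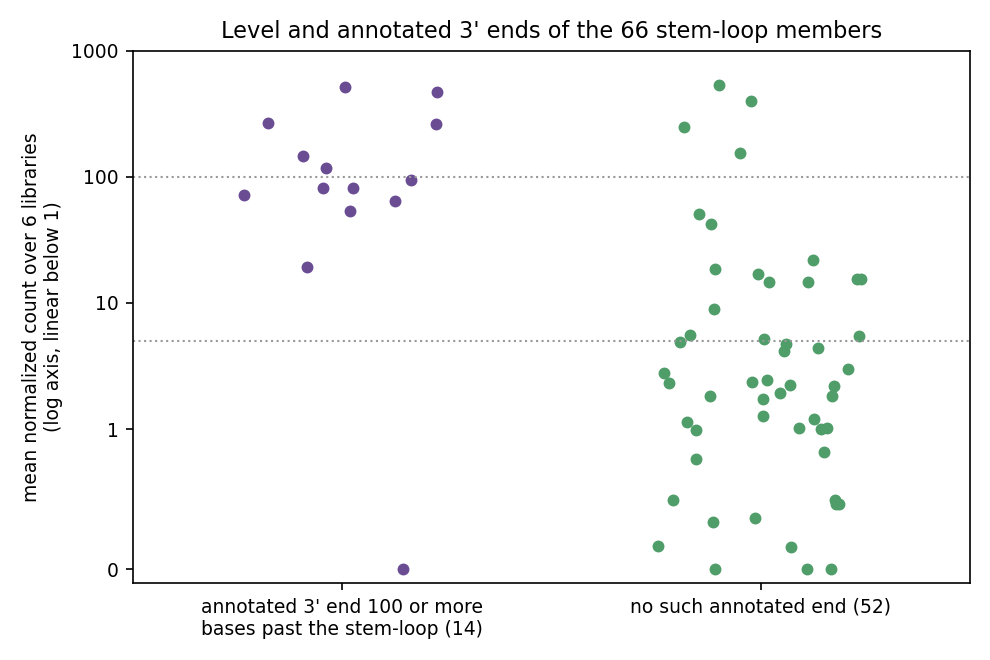
Each point is 1 of the 66 stem-loop genes, placed by its mean normalized count over the 6 libraries (y axis, log above 1) and by whether GENCODE 44 has a transcript ending at least 100 bases past the stem-loop (x axis). Dotted lines mark 5 and 100, and 13 of the 14 genes with such an end lie above 5 while 35 of the 52 without lie below it.

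Library totals ran from 28383171 to 35059576 counts, and replicates of a group differed beyond sampling noise. Between replicates the biological coefficient of variation came to 4.87% for siControl and 14.03% for siPVT1. PVT1 itself was at 3298, 4090.5 and 3377 in the siControl libraries and 2349.7, 2111 and 2062 in the siPVT1 libraries, a fall by adjusted p that did not reach the fold threshold (log2 fold change -0.72, SE 0.10, edgeR adjusted p = 3.42e-04). All 6 epithelial markers of SK-OV3 cells were detected in every library, the keratin genes KRT8 and KRT18 at 7808 normalized counts or more and EPCAM at 41.3 to 127. Of 10 markers of other cell types, CD3E was at 0 and PTPRC at no more than 2.02, while the sum of the list was 2082 to 2112 in siControl and 8626 to 10901 in siPVT1, nearly all of it CDH5 (8260.2 to 10470.2 in siPVT1). Of the 6 of these markers tested, CDH5, PECAM1 and VWF were higher past both thresholds. CD14 was at 2.19 to 9.52 in all libraries and passed the filter on low counts through siControl alone, and DESeq2 did not call it. Among the epithelial markers KRT19 was higher past both thresholds (log2 fold change 2.30, edgeR adjusted p = 1.03e-04), PAX8 (0.9995, edgeR adjusted p = 3.33e-05), KRT8 and KRT18 were higher and ERBB2 lower (-0.43, edgeR adjusted p = 0.00106) by adjusted p alone. The part of all these markers in the histone results was not tested.

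The test of siPVT1 against siControl asked which of these genes differ after knockdown, with edgeR's quasi-likelihood fit over all 19008 genes that passed the filter on low counts. The filter asked for 5 normalized counts or more in 3 or more libraries, and it left 30 of the 69 members: 29 of the 66 replication-dependent genes, and H1-10. H2AC7 passed through its siControl libraries alone, so that the filter itself favours a lower siPVT1 value. The other 39 members were not tested. A gene was past both thresholds when its adjusted p was under 0.05 and its log2 fold change was 1 or more, or -1 or less.

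In siPVT1 cells 10 replication-dependent genes were lower and 0 higher past both thresholds, and H1-10 was higher. The 10 were H4C8, H4C15, H4C5, H2BC8, H2BC18, H2BC6, H2BC7, H2AC6, H2AC8 and H2AC7, and they are 34.5% of the 29 tested, beside 9.64% of all tested genes lower and 11.8% higher. Without H2AC7, which the filter kept through siControl alone, 9 of 28 were lower (32.1%). With H4C14 and H4C15 also counted as 1 gene, for the reason given below, 8 of 27 were lower (29.6%). H3C14 and H3C15, which are 1 measurement as given below, both stay in the 29, 28 and 27. By adjusted p, whatever the fold, 14 of the 29 were lower and 1, H1-2, was higher. Without H2AC7, 13 of 28 (46.4%) were lower. Of all tested genes 28.4% were lower and 29.5% higher. DESeq2 called 9 lower and 0 higher past both thresholds, and at an unadjusted edgeR p under 0.05 the counts were 14 lower (13 without H2AC7) and 1 higher. The median log2 fold change of the 29 was -0.55 (-0.49 without H2AC7), beside 0.001 over all tested genes, and their range ran from -3.33 to 0.77. All siPVT1 libraries lay below all siControl libraries for 15 of the 29 (14 of 28 without H2AC7), as they did for 32.3% of all tested genes. They lay above for 2, beside 33.2% of all. With 3 libraries against 3 an exact two-sided permutation test of a single gene cannot go below p = 0.1, and that was its value for each gene whose groups did not overlap.

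**Figure D2:**
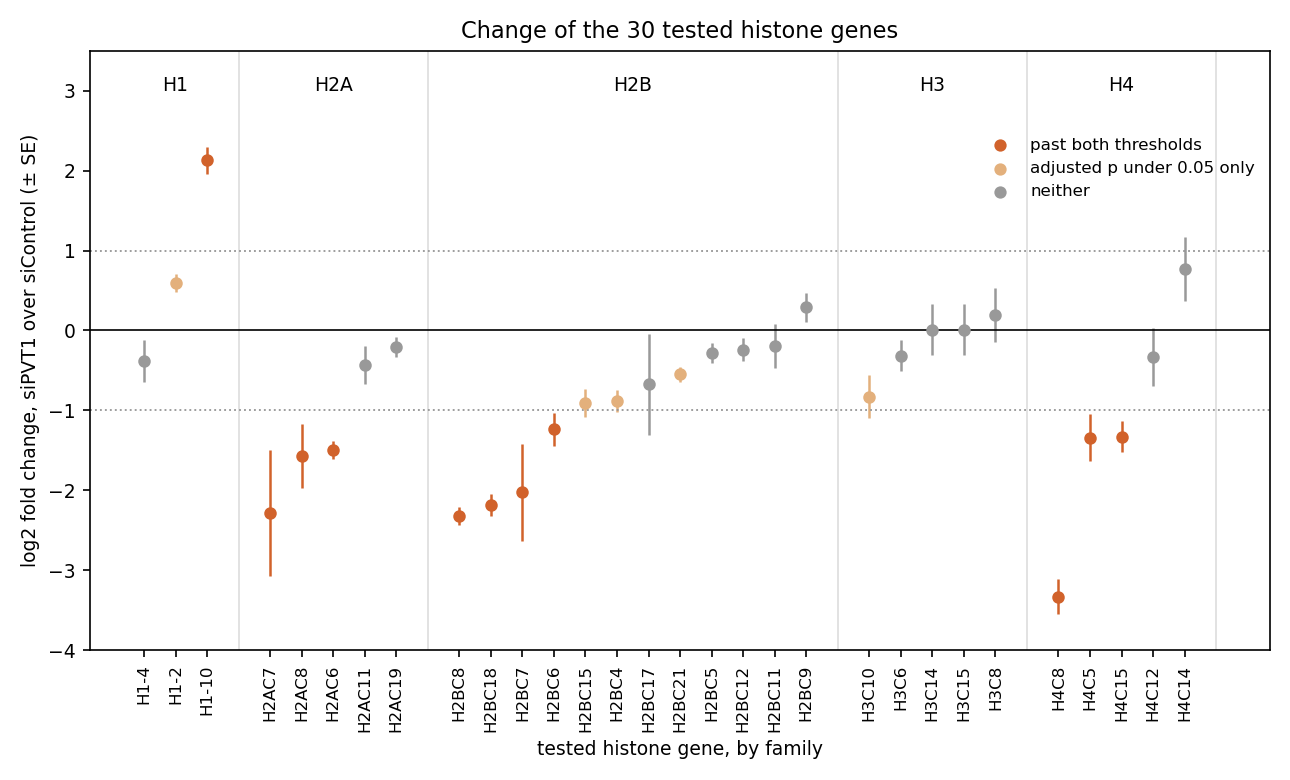
Points are the log2 fold changes of the 30 tested histone genes (y axis, siPVT1 over siControl, bars ± SE of the edgeR fit), grouped by family on the x axis, with dotted lines at -1 and 1. H4C8 is the lowest at -3.33 and H1-10 the highest at 2.13, and no H3 gene passes either line.

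Among the H4 genes, which encode the same core histone, 5 of 14 were tested and 3 fell past both thresholds. Of all tested genes 9.64% did so. Among the 3, H4C15 shares reads with H4C14. H4C8 (minus strand, chr6:26277609-26285638), whose stem-loop heads the list above, had the largest fall. Its normalized counts were 257, 240.4 and 297 in the siControl libraries and 16.7, 26.2 and 34.8 in the siPVT1 libraries. The siPVT1 values all lay under the lowest siControl value, a 10.1-fold fall (log2 fold change -3.33, SE 0.22, edgeR adjusted p = 9.00e-06). H4C15 (minus strand, chr1:149854045-149861159) was at 375, 363 and 416 in the siControl libraries and 156, 198 and 107 in the siPVT1 libraries, again without overlap (log2 fold change -1.33, SE 0.19, edgeR adjusted p = 5.58e-04). H4C14 has the same annotated coding sequence and shares an identical transcript with H4C15, so the study's counting could split their reads in any way. H4C14 itself was at 64.8, 55.6 and 60.97 in the siControl libraries and 101, 43.7 and 162 in the siPVT1 libraries, with groups that overlapped (log2 fold change 0.77, SE 0.40, edgeR adjusted p = 0.133), and siPVT1 replicates 1 and 3 high. The sum of the pair, which does not depend on that split, was 439.96, 418 and 477 in the siControl libraries and 257, 241 and 269 in the siPVT1 libraries, with no overlap. Counted as 1 gene, a choice made after seeing the data, the pair fell by adjusted p but not past the fold threshold (log2 fold change -0.80, SE 0.09, edgeR adjusted p = 1.47e-04), which leaves 2 of 4 tested H4 genes past both. Without siPVT1 replicate 2, H4C14 on its own was higher past both thresholds (1.11, edgeR adjusted p = 0.00738). H4C5 stood at 24.8, 22.2 and 19.4 in the siControl libraries and 6.68, 8.74 and 10.3 in the siPVT1 libraries, a fall at low counts (log2 fold change -1.34, SE 0.30, edgeR adjusted p = 0.0049). H4C12 was at 7.52 to 19.7 in all libraries and did not pass the test (log2 fold change -0.33, SE 0.37, edgeR adjusted p = 0.469). H4C11, whose coding sequence equals that of H4C12, had 19 counts in siPVT1 replicate 3 and 0 in the other libraries, and was not tested.

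For H2B, the partner of H2A, 12 of 17 genes were tested, 4 fell past both thresholds and 3 more by adjusted p alone. The 4 of 12 are 33.3%, beside 9.64% of all tested genes. By adjusted p 58.3% of the 12 were lower, beside 28.4% of all tested genes. H2BC8 (chr6:26216200-26216688, minus strand) was at 277, 243 and 256 in the siControl libraries and 52.3, 52.4 and 50.7 in the siPVT1 libraries. Every siPVT1 library was near 50 and every siControl library above 240, a 4.99-fold fall (log2 fold change -2.32, SE 0.11, edgeR adjusted p = 2.51e-06). H2BC18, on chromosome 1 (chr1:149782689-149812373, minus strand), was at 158, 155 and 153 in the siControl libraries and 33.4, 37.1 and 31.9 in the siPVT1 libraries, and its libraries were as close to each other within groups (log2 fold change -2.18, SE 0.14, edgeR adjusted p = 7.48e-06). H2BC6 stood at 65.7, 82.8 and 78.5 in the siControl libraries and 27.8, 39.3 and 29.1 in the siPVT1 libraries and also fell (log2 fold change -1.24, SE 0.21, edgeR adjusted p = 0.00111). H2BC7 was called lower on few counts: 7.62, 23.2 and 12.9 in the siControl libraries and 5.57, 1.09 and 3.76 in the siPVT1 libraries (log2 fold change -2.02, SE 0.61, edgeR adjusted p = 0.0203). That call was lost without siControl replicate 2 (log2 fold change -1.53, edgeR adjusted p = 0.0729) and without siPVT1 replicate 2 (-1.65, edgeR adjusted p = 0.0674).

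The other H2B genes at sizeable counts did not pass both thresholds. H2BC12, first among the replication-dependent genes by mean count, was at 599, 508 and 617 in the siControl libraries and 411, 451 and 596 in the siPVT1 libraries. Its groups overlapped, with siPVT1 replicate 3 among the siControl values, and it did not pass the test (log2 fold change -0.24, SE 0.15, edgeR adjusted p = 0.194). It passed the adjusted p, not the fold, without siPVT1 replicate 3 (-0.43, edgeR adjusted p = 0.00300) and with libraries scaled by total counts (-0.39, edgeR adjusted p = 0.0424). H2BC21 was at 589, 517 and 575 in the siControl libraries and 357, 378 and 412 in the siPVT1 libraries, without overlap, and passed the adjusted p but not the fold (log2 fold change -0.55, SE 0.09, edgeR adjusted p = 0.00115). H2BC5 was at 272, 283 and 305 in the siControl libraries and 275, 204 and 230.2 in the siPVT1 libraries, and siPVT1 replicate 1 lay between the siControl values (log2 fold change -0.28, SE 0.12, edgeR adjusted p = 0.0855). Without that library it passed the adjusted p (-0.41, edgeR adjusted p = 0.0131). H2BC4 was at 156, 136 and 163 in the siControl libraries and 91.3, 73.2 and 81.7 in the siPVT1 libraries, with siPVT1 below siControl throughout (log2 fold change -0.89, SE 0.14, edgeR adjusted p = 7.83e-04). It crossed the fold threshold only when libraries were scaled by their total counts (-1.03). H2BC15 was the remaining H2B gene lower by adjusted p alone (log2 fold change -0.91, SE 0.18, edgeR adjusted p = 0.00244), past both thresholds with total-count scaling (-1.06) and without siPVT1 replicate 2 (-1.05), and H2BC9 the single tested H2B gene with a positive value, which did not pass the test (log2 fold change 0.29, SE 0.18, edgeR adjusted p = 0.205).

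Of the 16 H2A genes 5 were tested and 3 fell past both thresholds, as did 9.64% of all tested genes. H2AC7, 1 of the 3, was tested through its siControl libraries alone, so its fold and p are no support for a fall. DESeq2 called 2 lower. H2AC6 (chr6:26124145-26139116, plus strand) was the H2A gene with the highest mean, at 791, 763 and 748 in the siControl libraries and 248, 248 and 320.4 in the siPVT1 libraries. All siPVT1 values were under 330 and all siControl values above 740, a 2.81-fold fall (log2 fold change -1.49, SE 0.11, edgeR adjusted p = 1.71e-05). H2AC8 stood at 19.05, 23.2 and 33.3 in the siControl libraries and 6.68, 13.1 and 5.64 in the siPVT1 libraries (log2 fold change -1.57, SE 0.40, edgeR adjusted p = 0.00949). H2AC7 was at 8.57, 13.1 and 5.54 in the siControl libraries and 4.45, 1.09 and 0 in the siPVT1 libraries, the lowest counts among the called genes (log2 fold change -2.28, SE 0.79, edgeR adjusted p = 0.0366). DESeq2 gave H2AC7 an adjusted p of 0.0569, edgeR adjusted p = 0.0619 to 0.116 stood without any 1 of siControl replicates 1 and 2 and siPVT1 replicates 2 and 3, and its log2 fold change moved to -3.87 without siPVT1 replicate 1 and to -1.68 without siPVT1 replicate 3. H2AC19, on chromosome 1, was at 439, 366 and 470.2 in the siControl libraries and 413, 362 and 334 in the siPVT1 libraries and its groups overlapped (log2 fold change -0.20, SE 0.12, edgeR adjusted p = 0.189). H2AC18 has the same annotated coding sequence as H2AC19 and was at 0 in every library, so the counts of H2AC19 may belong to either gene.

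H3 genes had few counts and none passed both thresholds. Of 13 genes 5 were tested and 1 was lower by adjusted p alone (20%, beside 28.4% of all tested genes). At an unadjusted edgeR p under 0.05 there was also 1, with 0 calls by DESeq2. H3C6, the H3 gene with the highest mean, was at 90.5, 70.7 and 109.9 in the siControl libraries and 65.7, 73.2 and 78.9 in the siPVT1 libraries, and the groups overlapped (log2 fold change -0.32, SE 0.19, edgeR adjusted p = 0.194). H3C10, chosen after its values were seen as the 1 that passed the adjusted p, was at 28.6, 24.2 and 21.2 in the siControl libraries and 11.1, 14.2 and 15.97 in the siPVT1 libraries (log2 fold change -0.83, SE 0.27, edgeR adjusted p = 0.0297). H3C14 and H3C15 share a coding sequence and held the same count in each library. They are therefore 1 measurement given under both names, and both are among the 5 tested.

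Of the 9 H1 genes 3 were tested, and 2 of these, H1-2 and H1-10, were the only members higher by adjusted p. Of all tested genes 29.5% were higher by adjusted p, and 11.8% past both thresholds, as H1-10 was. H1-2, a replication-dependent linker histone on chromosome 6, was at 190.5, 183 and 223 in the siControl libraries and 333, 289.5 and 278 in the siPVT1 libraries. It was the 1 replication-dependent gene higher by adjusted p, with no overlap of the groups (log2 fold change 0.59, SE 0.12, edgeR adjusted p = 0.00278). H1-4, the other replication-dependent H1 tested, was at 15.3 to 29.6 in all libraries and did not pass the test (log2 fold change -0.38, SE 0.26, edgeR adjusted p = 0.243).

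H1-10, a replacement linker histone on chromosome 3 (chr3:129314771-129316286, minus strand, 1 exon), was at 1437, 1269.9 and 1471 in the siControl libraries and 7707, 5935 and 4675 in the siPVT1 libraries. The lowest siPVT1 value was that of replicate 3, and it still lay above every siControl value, so that H1-10 rose 4.38-fold (log2 fold change 2.13, SE 0.17, edgeR adjusted p = 2.25e-05). H1-10-AS1 overlaps H1-10 on the other strand, and whether the study's counting used strand is not given in the sources used here. The annotated spans of H4C8, H2BC8, H2BC18, H2BC4 and other members also overlap genes on the other strand, so the same limit holds for them. H1-10-AS1 was at 19.998, 20.2 and 14.8 in the siControl libraries and 71.3, 84.1 and 62.01 in the siPVT1 libraries, far fewer than H1-10.

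**Figure D3:**
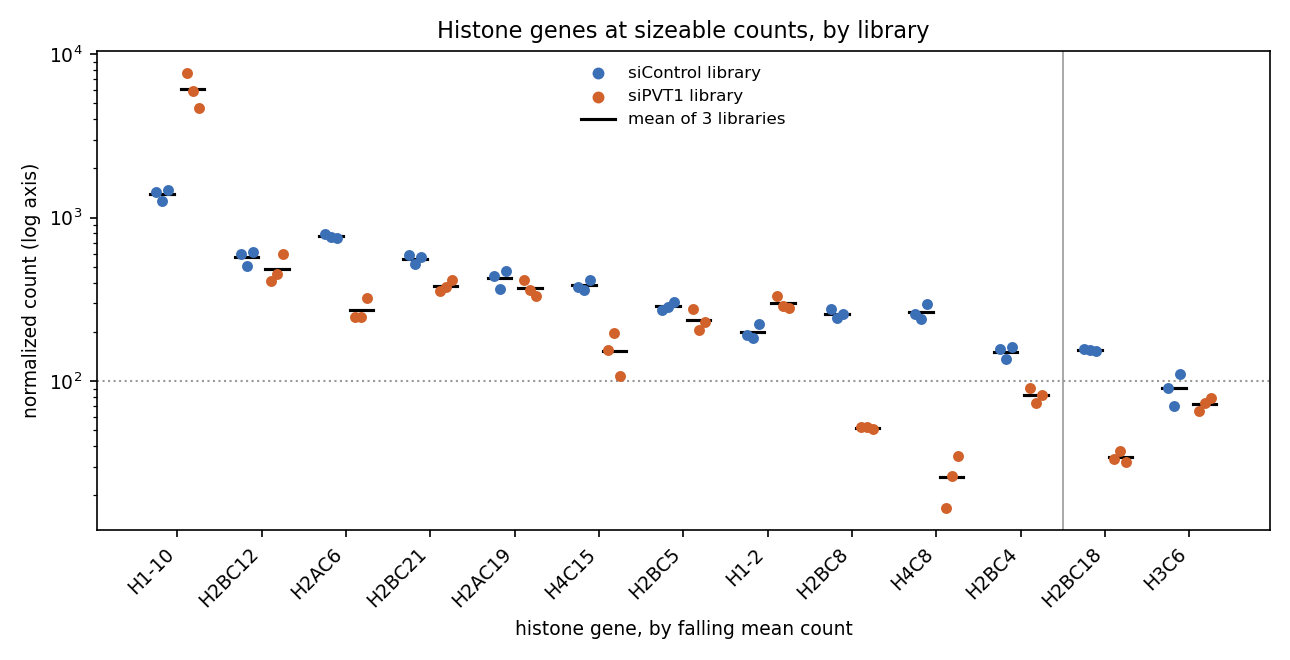
Normalized counts (log axis) of the 11 histone genes at sizeable counts, ordered by mean, and of the 2 genes just under the limit of 100 (dotted line), to the right of the grey line; points are the 3 libraries of each group and black bars their means. H1-10 and H1-2 are higher in siPVT1, while H4C8 falls from 240.4 to 297 normalized counts in siControl to 16.7 to 34.8 in siPVT1.

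Summed over the 66 replication-dependent genes, the normalized count was 4826, 4521 and 4965 in the siControl libraries and 2899, 2877 and 3157 in the siPVT1 libraries. The mean fell from 4771 ± 227 (SD, n = 3) to 2978 ± 156 (SD, n = 3), a ratio of 0.624, without overlap and with no test run on the sum. As a share of all counts these genes made up 158 to 166 per 1000000 in siControl and 88.0 to 95.8 per 1000000 in siPVT1. The log2 ratio of the sums was -1.24 for H4, -0.88 for H2A, -0.64 for H2B, -0.30 for H3 and 0.49 for the replication-dependent H1 genes. The 55 replication-dependent genes on chromosome 6 gave -0.73 and the 11 on chromosome 1 gave -0.59. H1-10 ran the other way. A few genes held much of the H2A and H4 sums, so these ratios are not falls shared by every gene. Of the H2A sum (means 1308 in siControl and 709 in siPVT1), H2AC6 gave 767 and 272, and H2AC19 425 and 369. Of the H4 sum (762 and 322), H4C15 gave 385 and 154, H4C8 265 and 25.9, and H4C14 60.4 and 102. Between these bulk samples, fewer cells making a transcript and less of it per cell cannot be told apart.

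**Figure D4:**
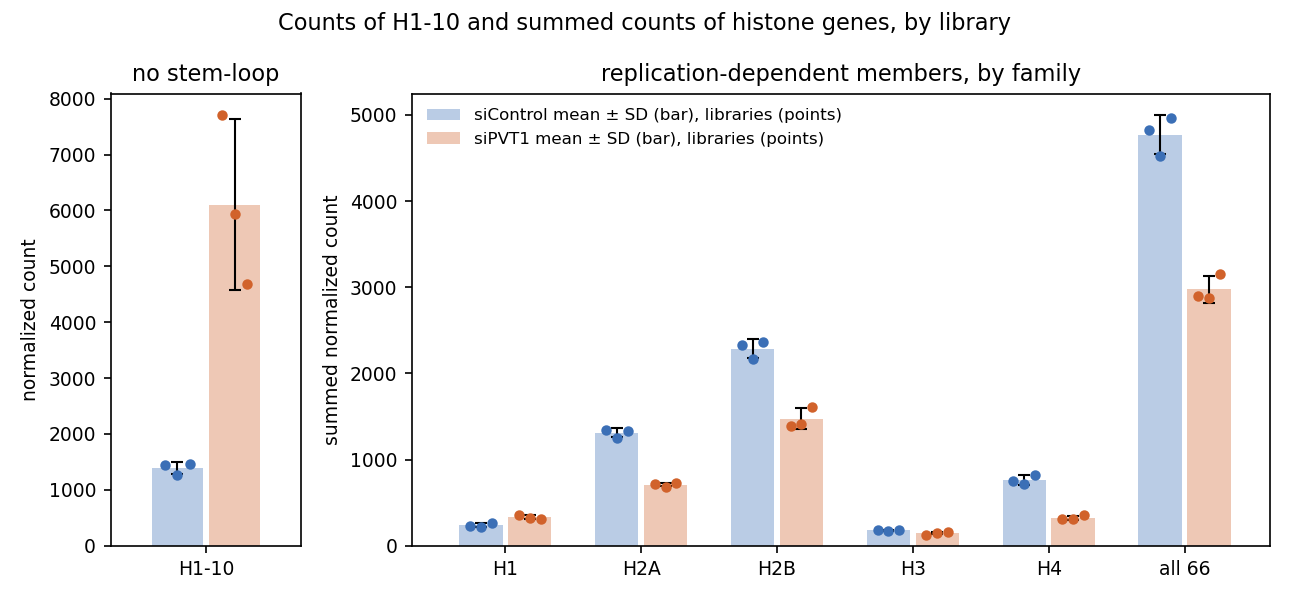
Normalized counts of H1-10 (left) and summed normalized counts of the 66 replication-dependent genes by family and in all (right); bars are means of 3 libraries with SD, points the libraries, and both y axes start at 0 but differ in scale. The H2A, H2B, H3, H4 and total sums are lower in all siPVT1 libraries, and H1-10 is higher in all of them.

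Many H2A and H2B genes lie head to head and share the stretch between their start sites. Main transcripts of members started within 1000 bases of each other on opposite strands in 12 pairs, 11 of them H2A with H2B at 194 to 251 bases and 1 H3C7 with H2BC9 at 979 bases. Both genes were tested in 4 pairs. In 3 of these, H2BC8 with H2AC8 (233 bases apart), H2BC4 with H2AC6 (246 bases) and H2BC7 with H2AC7 (223 bases), both genes were lower by adjusted p. The last of these rests on few counts: H2AC7 was tested through siControl alone, and both calls were lost without siControl replicate 2 or siPVT1 replicate 2. The fourth was H2BC11 with H2AC11, in which neither passed the test. By adjusted p 14 of the 29 tested replication-dependent genes were lower (13 of 28 without H2AC7), beside 28.4% of all tested genes. The part of the shared stretch was not tested. H2BC12 and H2BC21, both at sizeable counts, had partners near zero or barely above it: H2AC12 at a mean of 1.94 and H2AC20 at 5.61 normalized counts.

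Promoters were read from RefSeq (GRCh38.p14), 250 bases before to 50 after the start site, for 64 of the 69 members. The motifs searched, on both strands, were the TATA box (TATAAA), the box named by its letters CCAAT and bound by NF-Y, the octamer ATTTGCAT known from H2B promoters, and the H1 box (AAACACA). The octamer was in 14 of 17 H2B and 11 of 15 H2A promoters, beside 1.77% of all promoters, and the H1 box in 7 of 9 H1 promoters, beside 5.64% of all. The TATA box was in 11.53% and the CCAAT box in 34.6% of all promoters. The windows of an H2A and H2B pair overlap, so the same octamer can count for both genes. The 150 bases before the start site are shown for H2BC8, which fell, H2BC12, which did not pass the test, and H1-2, which rose by adjusted p alone, with motif matches in capitals.
H2BC8 (chr6:26216689-26216838, minus strand): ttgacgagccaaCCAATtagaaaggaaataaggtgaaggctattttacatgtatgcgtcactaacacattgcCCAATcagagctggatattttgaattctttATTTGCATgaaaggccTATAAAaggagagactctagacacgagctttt
H2BC12 (chr6:27146859-27147008, minus strand): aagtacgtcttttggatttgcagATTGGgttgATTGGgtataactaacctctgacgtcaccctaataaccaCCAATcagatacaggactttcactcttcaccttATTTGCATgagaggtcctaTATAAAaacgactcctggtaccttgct
H1-2 (chr6:26056471-26056620, minus strand): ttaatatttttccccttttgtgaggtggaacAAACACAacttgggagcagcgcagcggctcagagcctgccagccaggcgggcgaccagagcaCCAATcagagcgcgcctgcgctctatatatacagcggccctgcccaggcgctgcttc
H2BC8 and H2BC12 both held the octamer, starting 48 and 46 bases before the start site, and the TATA box, at 32 and 27 bases. Of the 10 tested H2B genes with the octamer, 4 were lower past both thresholds and 6, these 4 among them, by adjusted p. For the 2 without, H2BC5 and H2BC15, these counts were 0 and 1. These counts stand beside 9.64% and 28.4% of all tested genes, and the 3 H4 genes lower past both thresholds had no octamer. H1-2 held the H1 box 119 bases and the CCAAT box 57 bases before its start. No match to any of the 4 motifs was in the windows of H4C8, H4C15, H4C14 or H4C5. A match is a run of letters and was not tested as a site.

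Genes for the proteins that switch on, process and place histones were counted beside these genes. The list of 20 genes of histone transcription and mRNA processing had 0 calls past both thresholds by edgeR and 0 by DESeq2, with 4 higher and 7 lower by edgeR adjusted p alone and 4 and 9 at an unadjusted p under 0.05. Of all tested genes 11.8% were higher and 9.64% lower past both thresholds. The 7 of 20 lower by adjusted p are 35%, beside 28.4% of all tested genes, and the 4 higher are 20%, beside 29.5%. Its median log2 fold change was -0.21. Without siPVT1 replicate 3, CSTF2 was called lower. SLBP, which binds the stem-loop, was at 1571, 1413 and 1556 in the siControl libraries and 1086, 1199 and 1621 in the siPVT1 libraries, and siPVT1 replicate 3 was the highest library of all (log2 fold change -0.22, SE 0.14, edgeR adjusted p = 0.22). Without that library SLBP was lower by adjusted p (-0.42, edgeR adjusted p = 2.60e-04), as with total-count scaling (-0.36, edgeR adjusted p = 0.0475). NPAT, the S phase activator of these genes, was at 1566, 1437 and 1435 in the siControl libraries and 1518, 1562 and 1683 in the siPVT1 libraries with overlapping groups (log2 fold change 0.10, SE 0.07, edgeR adjusted p = 0.243), and its value was -0.046 with libraries scaled by total counts.

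The 11 genes listed as replication-independent histone variants, which include H1-10 and H2AX, had 3 higher and 1 lower past both thresholds, and a median of 0.42. By adjusted p, whatever the fold, 7 were higher and 1 lower, and DESeq2 called 2 higher and 1 lower past both thresholds. Of all tested genes 11.8% were higher and 9.64% lower past both thresholds, and 29.5% and 28.4% by adjusted p alone. H3-3A, a replacement H3 gene, was at 2492, 2188 and 2621 in the siControl libraries and 5146, 5544 and 5519 in the siPVT1 libraries (log2 fold change 1.15, SE 0.08, edgeR adjusted p = 1.07e-05). H3-3B, the other gene of that protein, rose by adjusted p alone (log2 fold change 0.35, edgeR adjusted p = 0.00385). H3-5 was called higher on few counts, at 7.62, 3.03 and 3.69 in the siControl libraries and 16.7, 7.65 and 15.03 in the siPVT1 libraries (log2 fold change 1.43, SE 0.48, edgeR adjusted p = 0.0324), a call lost with DESeq2 and without any 1 of siControl replicates 2 and 3 and siPVT1 replicates 1 and 3. The name of the list fits H2AX, the variant phosphorylated at DNA breaks, only in part, since its mRNA can end in a stem-loop or a poly(A) tail. H2AX was the 1 that fell. It stood at 1583, 1539 and 1587 in the siControl libraries and 499, 568 and 762 in the siPVT1 libraries (log2 fold change -1.36, SE 0.14, edgeR adjusted p = 8.41e-05). Higher by adjusted p alone were CENPA, the centromeric H3 (0.80, edgeR adjusted p = 0.00276), H2AJ (0.61, edgeR adjusted p = 0.00352) and H2AZ2 (0.42, edgeR adjusted p = 0.00165). MACROH2A1, MACROH2A2 and H2AZ1 did not pass the test, with log2 fold changes of 0.06, -0.16 and 0.12, and H2AZ1 was at -0.073 without siPVT1 replicate 3.

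Among 18 histone chaperones, the proteins that carry histones to DNA, 1 was higher and 2 were lower past both thresholds, with a median of -0.10. Of all tested genes 11.8% were higher and 9.64% lower, so the list was not far from these shares. By adjusted p, whatever the fold, 5 were higher and 6 (33.3%) lower, beside 29.5% and 28.4% of all tested genes. HJURP, the chaperone of CENPA, was at 2092, 1825 and 2003 in the siControl libraries and 5152, 5134 and 5301 in the siPVT1 libraries (log2 fold change 1.40, SE 0.07, edgeR adjusted p = 2.18e-06). IPO4, an importin that carries H3 and H4 into the nucleus, was at 1828, 1837 and 1924 in the siControl libraries and 765, 807 and 956 in the siPVT1 libraries (log2 fold change -1.14, SE 0.09, edgeR adjusted p = 2.20e-05). CHAF1B, a subunit of the assembly factor CAF-1, was at 599, 630.4 and 649 in the siControl libraries and 173, 258 and 486 in the siPVT1 libraries, with replicate 3 of siPVT1 nearest the siControl values (log2 fold change -1.03, SE 0.31, edgeR adjusted p = 0.0203). The call on CHAF1B was lost without siControl replicate 2 or 3 or siPVT1 replicate 1 or 2.

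S phase genes are given beside the histone genes because both are used in the same phase. Of 28 such genes 0 were higher and 2 lower past both thresholds by edgeR, as by DESeq2, with 2 higher and 9 lower by adjusted p alone, 3 and 9 at an unadjusted p under 0.05, and a median of -0.25. Of all tested genes 11.8% were higher and 9.64% lower past both thresholds. The 9 of 28 lower by adjusted p, which include the 2 past both, are 32.1%, beside 28.4% of all tested genes. The 2 higher are 7.14%, beside 29.5% of all. MCM3, of the replicative helicase, was at 2470.2, 2306 and 2493 in the siControl libraries and 592, 799.8 and 1526 in the siPVT1 libraries (log2 fold change -1.31, SE 0.29, edgeR adjusted p = 0.00505). GINS2, of the same helicase complex, was at 479.95, 481 and 478 in the siControl libraries and 140.3, 199.95 and 364 in the siPVT1 libraries (log2 fold change -1.02, SE 0.28, edgeR adjusted p = 0.0149), and its call was lost without siPVT1 replicate 1 or 2. The summed normalized count of the list was 59384, 55410.1 and 58849 in the siControl libraries and 38581, 45246 and 63711 in the siPVT1 libraries, so that siPVT1 replicate 3 lay above the siControl libraries and the other siPVT1 libraries below. Without siPVT1 replicate 3 the list had 6 lower calls, and without siPVT1 replicate 1 or 2 it had 1. The replication-dependent histone sum was 3157 in siPVT1 replicate 3. Without that library there were 9 lower calls among the histone genes, H2AC7 being lost. The part of S phase in the lower histone counts was not tested.

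**Figure D5:**
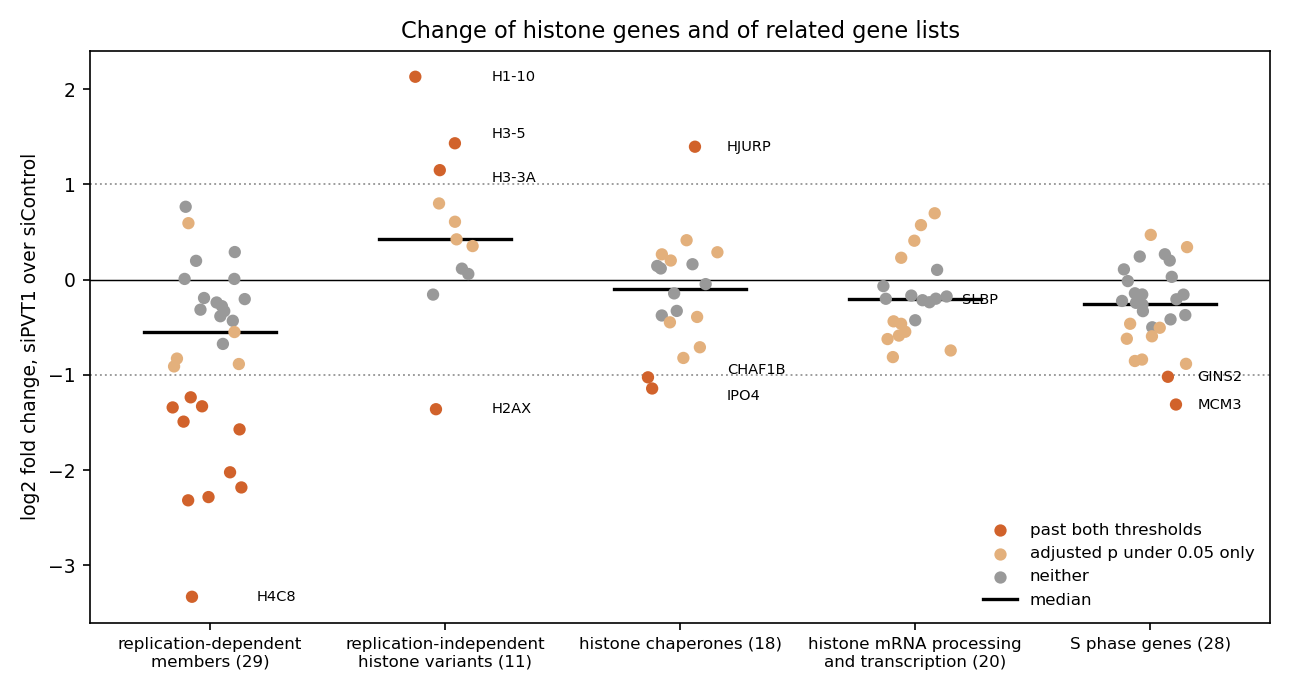
Log2 fold changes (y axis, siPVT1 over siControl) of the 29 tested replication-dependent histone genes and of the 4 related gene lists (x axis, number tested in brackets); black bars are medians and dotted lines mark -1 and 1. The medians are -0.55, 0.42, -0.10, -0.21 and -0.25 from left to right. Without H2AC7, which passed the filter through siControl alone, the first is -0.49.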

How the data were processed

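RNA of SK-OV3 cells was prepared with a poly(A)-capture mRNA kit and sequenced; per the labels and submitters' processing notes the authors used bcl2fastq 2.20.0, STAR 2.7.3a and Salmon 0.14.1 on GRCh38.p13, with DESeq2 1.28.1. The deposited table holds estimated counts per gene as whole numbers, not normalized, with depths as given above. Groups came from the labels. Counts were analysed with edgeR 4.0.16 in R 4.3.3 (TMM factors over all genes, quasi-likelihood test, Benjamini-Hochberg over 19008 genes); DESeq2 1.42.0 was the alternative tool. The thresholds are those of the study's methods, and the filter uses its limits. The scripts were tested on simulated data.

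Members and lists were chosen with earlier results of these data known. Named are all members at sizeable counts, other members past both thresholds, the 2 genes on either side of the limit of 100, PVT1, and from the lists SLBP, NPAT, genes past both thresholds and the replication-independent variants. Other genes named were chosen after their values were seen. 1 gene of the symbol pattern and 1 marker are not reported here. Annotation came from GENCODE 44 and promoters from RefSeq.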

Additional observations from a re-analysis of the deposited data

How the results depend on the processing

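Past both thresholds 11 histone genes were called (1 higher, 10 lower). Other fits gave 9 to 13 member calls: 10 with DESeq2, 11 with DESeq2 size factors, 13 with total-count scaling, 12 (2 higher) with no filter on low counts, and 9 to 11 (8 to 10 lower, 1 to 2 higher) when any 1 library was left out. Replicate numbers do not pair the samples (correlations of same-numbered deviations -0.04, 0.03 and 0.002); the replicate block gave 11 member calls, the same 11 genes. Adjusted p alone gave 16 (2 higher, 14 lower). Of 198 values of 18 named histone genes under alternatives, 190 kept direction and their side of the joint thresholds, 7 (H2AC7 and H2BC7) lost the call, 1 (H2BC4) gained it and 0 reversed; 5 values of H2BC12, H2AC19 and H2BC5 passed the adjusted p alone, 3 of them with total-count scaling. Calls gained by other members were H2BC15 (lower, total-count scaling and without siPVT1 replicate 2), H4C14 (higher, without siPVT1 replicate 2) and H4C11 (higher, no filter). Counting H4C14 and H4C15 as 1 gene, added after seeing the data, gave 10 calls (9 lower). Without the 3 H1 genes that lack a stem-loop 0 were higher, and the log2 ratio of the sum of the 69 genes turned from 0.56 to -0.68, as it did without H1-10 alone. The sum of replication-dependent genes stood at -0.68, at -0.83 with total-count scaling and at -0.72 to -0.65 with 1 library left out (0.43 to 0.66 for the 69 genes). With a limit of 50 in place of 100, 18 genes were at sizeable counts. Over all genes, adjusted p alone called 11007 (5612 higher, 5395 lower) in place of 4081 (2248 and 1833). Total-count scaling shifted the median of all genes to -0.15 and the higher share of calls from 55.1% to 43.8%, and reversed NPAT (-0.046), H2AZ1 (-0.033) and MACROH2A1 (-0.090), none of which passed the test in the reported fit; H2AZ1 ran from -0.073 (without siPVT1 replicate 3) to 0.222 with 1 library left out. Alternatives on the gene lists were added after seeing the data: the processing list had 0 to 1 calls and S phase genes 1 to 6 with 1 library left out, and S phase genes 4 with total-count scaling. The cause of these shifts was not tested. Depth limits the 58 members below 100 normalized counts, of which 39 were not tested.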

Other observations

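Other histone rows outside the symbol pattern were looked at after the values were seen. H2BC19P and H2BC20P, H2B pseudogenes, were at 272 to 396 and at 399 to 736 normalized counts and lower by adjusted p alone (log2 fold change -0.41, edgeR adjusted p = 0.00499 and -0.59, edgeR adjusted p = 0.00171); reads they may share with the H2B genes make both values uncertain. H3P6, an H3 pseudogene, was at 217, 267 and 236 in the siControl libraries and 699, 722 and 593 in the siPVT1 libraries and higher past both thresholds (log2 fold change 1.48, SE 0.11, edgeR adjusted p = 1.90e-05). Reads that H3P6 may share with H3 genes make this value uncertain too. H3-2 was at 16.2, 15.2 and 17.6 in the siControl libraries and 0, 3.28 and 0.940 in the siPVT1 libraries, and with 0 to 3 counts in each siPVT1 library no fold is given, nor a p, since it passed the filter on low counts through siControl alone. H4-16 (0.30, edgeR adjusted p = 0.0841) and H2AW (-0.15, edgeR adjusted p = 0.503) did not pass the test, and H2BU1 passed by adjusted p alone (-0.95, edgeR adjusted p = 0.0466).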
